A study of Mus musculus with 4 samples.

Results

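Cryab, 3 further small heat-shock protein genes (Hspb1, Hspb6 and Hspb8) and 3 lens crystallin genes (Cryaa, Cryba1 and Crygs) were followed in single cells of mouse hyaloid vessels. These 7 genes were selected by name, out of 32285 genes in the deposited table. They were selected with the difference in Cryab between pericytes and endothelial cells already known, so that the members' values in that contrast are given as a description without a test.

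Cells came from the vitreous of P6 pups, of which 7 control Gpr124 fl/fl pups made up 1 suspension and 9 Gpr124 dEC/dEC pups another. The dEC/dEC pups were Gpr124 fl/fl with VECad-Cre-ERT2, a tamoxifen-responsive Cre recombinase under the vascular endothelial cadherin promoter. The controls were littermates that lacked Cre, carried the same floxed alleles and received the same tamoxifen from P1 to P4. Live cells were sorted by SORT-seq, which captures 1 cell per well and counts transcript 3′ ends as unique molecular identifiers (UMIs), with a CD31-gate plate and a PDGFRB-gate plate for each genotype. The knockout PDGFRB-gate plate also received some CD31-gate cells, whose wells were not identified here. Because both plates of a genotype came from the same pool, genotypes were compared without a test.

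Small heat-shock proteins are chaperones that bind unfolding proteins without using ATP and hold them in a state from which other chaperones can refold them. Cryab (αB-crystallin) and Cryaa (αA-crystallin) belong to this family and are the α-crystallins of the lens. Cryaa is largely restricted to the lens, whereas Cryab is also made in muscle, heart, glia and other cells. The β- and γ-crystallins, such as Cryba1 and Crygs, are structural lens proteins of another family. The hyaloid vessels surround the lens in the newborn eye, so that lens RNA carried into the suspension would be one possible source of crystallin transcripts. Lens crystallins were therefore counted in all wells next to Cryab.

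Of 1536 wells, 42 met the limits of the study's methods, namely 1000 to 8000 UMIs after scaling between plates and a mitochondrial share under 10%. Wells with Cldn5 but no Pdgfrb were called endothelial cells (11) and wells with Pdgfrb but no Cldn5 were called pericytes (21). The endothelial cells numbered 2 and 3 in the control CD31 and PDGFRB plates and 4 and 2 in the knockout plates, and the pericytes 6, 3, 0 and 12 in the same order. The paper reported the same numbers of endothelial cells per genotype but other numbers of pericytes. Its set of pericytes was therefore not reproduced exactly. Other wells held both markers (3), neither (7), a higher mitochondrial share (5), more than 8000 UMIs (11) or fewer than 1000 UMIs (1478). Mouse UMIs per plate ranged from 51972 to 174645, and the knockout CD31 plate was the lowest. The same 384 barcodes served in every plate, and 10 of the 32 cells had a barcode that was also a well of at least 1000 UMIs in another plate. Endothelial markers summed to 130 UMIs per 10000 in endothelial cells and 9.82 in pericytes, and pericyte markers to 16.1 and 193. The lists include Cldn5 (68 of 405 endothelial marker UMIs in endothelial cells) and Pdgfrb (135 of 1550 pericyte marker UMIs in pericytes). These 2 genes defined the classes, so the sums are not an independent check of the classes. Adgra2, the gene symbol of Gpr124, had 3 UMIs in 5 control and 0 UMIs in 6 knockout endothelial cells, too few to check the deletion.

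The members lie on separate chromosomes or far apart. In GRCm38, Cryab spans chr9:50751325-50756636 on the plus strand. Hspb2, another small heat-shock protein gene, runs on the opposite strand from 50751078 to 50752354, so that 1030 bases belong to both genes. Whether the counting used strand is not given in the sources used here, and reads from the shared stretch cannot be told apart without it. Hspb1 lies at chr5:135887919-135889563 (plus), Hspb8 at chr5:116408491-116422864 (minus), Hspb6 at chr7:30552178-30555443 (plus), Cryaa at chr17:31677807-31681733 (plus), Cryba1 at chr11:77718615-77725283 (minus) and Crygs at chr16:22805203-22811577 (minus).

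Heat-shock factors bind inverted repeats of the unit GAA. RefSeq promoter windows (GRCm38.p6, 250 bases before to 50 after the start) were matched for 6 of the 7 members, all but Cryab, and 3 of them are shown. Hspb1 is the member detected most widely after Cryab, Hspb8 is a family member that was almost undetected, and Cryaa is the lens-specific α-crystallin. Capitals mark GAANNTTC, 1 of the 2 inverted-repeat spellings searched. The other, TTCNNGAA, had no match in these 3 windows. Both spellings read the same on the 2 strands.
Hspb1, chr5:135887669-135887968, plus strand: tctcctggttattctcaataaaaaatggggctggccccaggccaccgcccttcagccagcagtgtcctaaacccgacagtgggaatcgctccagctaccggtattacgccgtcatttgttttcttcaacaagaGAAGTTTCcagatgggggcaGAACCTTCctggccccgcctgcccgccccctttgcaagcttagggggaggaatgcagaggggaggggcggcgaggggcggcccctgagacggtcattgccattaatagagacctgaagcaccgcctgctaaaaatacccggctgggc
Hspb8, chr5:116422815-116423114, minus strand: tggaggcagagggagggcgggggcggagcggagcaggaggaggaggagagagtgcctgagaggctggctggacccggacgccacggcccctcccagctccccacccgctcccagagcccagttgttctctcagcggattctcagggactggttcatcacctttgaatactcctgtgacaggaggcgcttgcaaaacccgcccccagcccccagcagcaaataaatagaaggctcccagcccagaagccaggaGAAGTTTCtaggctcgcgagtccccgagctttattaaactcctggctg
Cryaa, chr17:31677681-31677980, plus strand: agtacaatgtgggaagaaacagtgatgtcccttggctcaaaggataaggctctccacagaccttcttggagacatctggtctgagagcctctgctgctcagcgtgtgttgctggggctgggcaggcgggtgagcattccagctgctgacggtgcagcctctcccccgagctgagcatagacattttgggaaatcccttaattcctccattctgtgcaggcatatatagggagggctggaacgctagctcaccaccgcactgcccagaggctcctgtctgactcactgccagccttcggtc
The Hspb1 window held the spelling at positions -117 and -97 relative to the start (itself counted as 0), the Hspb8 window held it at 2, and the Cryaa window lacked it. Either spelling occurred in 15.1% of all 32851 promoter windows. It occurred in 4 of 8 windows of the small heat-shock protein family and in 1 of 15 of lens crystallins (Cryba1). The family windows lack Cryab, Hspb2 and Odf1, hold Hspb6 more than once and share Cryaa with the lens crystallins. These matches describe letters in the windows only.

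Cryab was the member with the most UMIs. All 21 pericytes held at least 1 Cryab UMI, and none of the 11 endothelial cells did. In the 6 pericytes of the control CD31 plate, the Cryab level ranged from 3.20 to 61.1 UMIs per 10000 UMIs of the cell, with a median of 15.7. The 3 pericytes of the control PDGFRB plate held 10.7, 12.5 and 13.2 UMIs per 10000. In the 12 pericytes of the knockout PDGFRB plate the lowest level was 2.25, the median 10.7 and the highest 51.3. The pericytes of the 3 plates overlapped, and every pericyte lay above every endothelial cell.

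**Figure D1:**
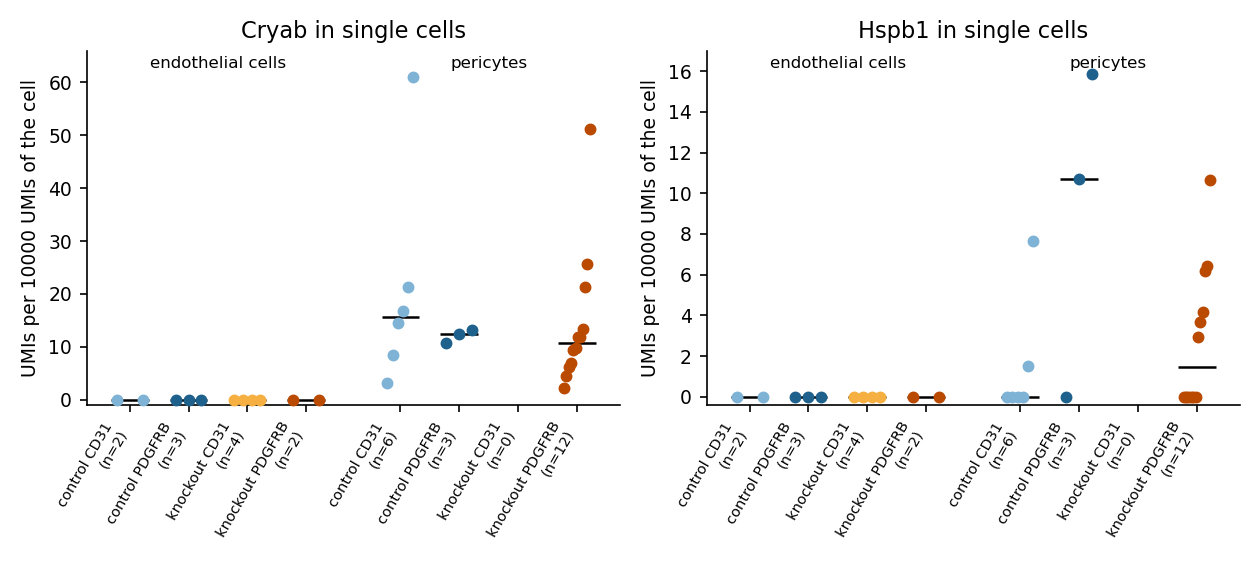
Cryab (left) and Hspb1 (right) in single cells, as UMIs per 10000 UMIs of the cell, for endothelial cells and pericytes of each plate (genotype and gate below, number of cells in brackets). Points are cells and black lines are medians. Cryab was at 0 in all 11 endothelial cells and above 0 in all 21 pericytes, and Hspb1 was above 0 in 10 pericytes.

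Summed over cells, Cryab had 106 UMIs of 80460 in pericytes, which is 13.2 UMIs per 10000, and 0 of 31048 in endothelial cells. An endothelial sum of 3 UMIs, the limit that a count of 0 allows, would be 0.966 per 10000, and against this floor Cryab was at least 13.6-fold higher in pericytes. With the counting error of both sums, the exact 95% interval of the ratio started lower, at 10.9. By plate, the pericyte sums were 16.1 (95% Poisson interval 10.8 to 23.1) per 10000 in the control CD31 plate, 12.1 (7.03 to 19.3) in the control PDGFRB plate and 12.4 (9.47 to 16.0) in the knockout PDGFRB plate. These intervals cover counting error only and overlap one another. The 4 endothelial sums were all at 0, so the sums of the classes did not overlap. Such a gap towards pericytes was seen for 13.5% of the 148 genes tested, and the opposite gap for 27.0%. Among all 9617 genes detected in pericytes, Cryab ranked 62 by UMIs.

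The number of Cryab UMIs in a pericyte was between 1 and 14, with a median of 4. Pericytes with more UMIs did not hold a higher share of Cryab. The 10 cells above the median total summed to 12.4 Cryab UMIs per 10000 and the 10 cells below it to 14.9. The 2 highest levels, 61.1 and 51.3 per 10000, came from 8 UMIs each in cells of 1309 and 1561 UMIs. Across the 21 pericytes, the Cryab level and the total of the cell had a Pearson r of -0.44 and a Spearman rho of -0.28, which share the total as denominator. With each cell thinned to 1000 UMIs, 71.9% of pericytes would on average still hold a Cryab UMI. The median depths were 3750 UMIs in pericytes and 3020 UMIs in endothelial cells. One endothelial cell of the knockout PDGFRB plate had 6901 UMIs, more than all but 1 pericyte, and held no Cryab.

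**Figure D2:**
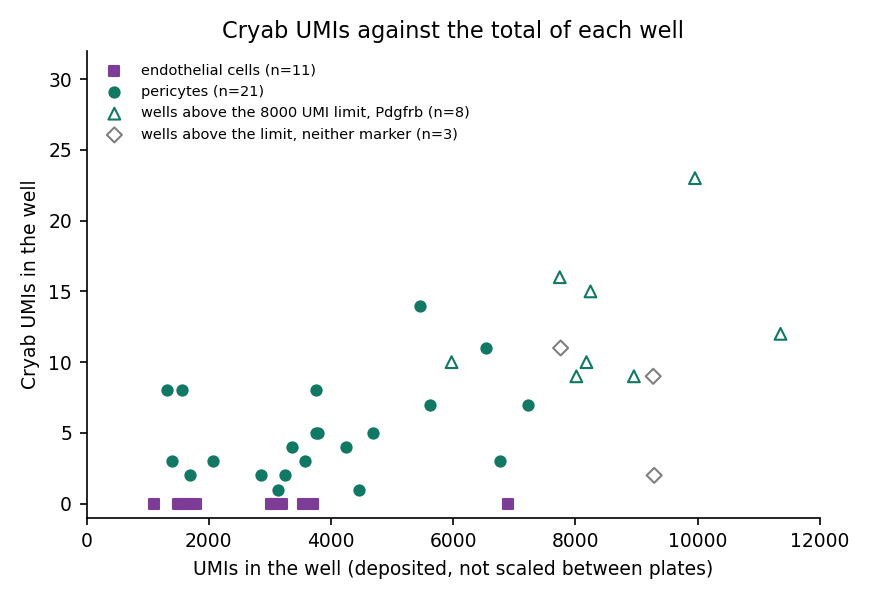
Cryab UMIs of a well (vertical axis) against all mouse UMIs of the well as deposited (horizontal axis). Filled symbols are the 11 endothelial cells and 21 pericytes, and open symbols are the 11 wells above the limit of 8000 scaled UMIs. All 11 endothelial cells lie at 0, and all pericytes and wells above the limit lie between 1 and 23.

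Wells left out at the limits also held Cryab. At the upper limit, the pericyte with the most UMIs (7222) held 7 Cryab UMIs, and a Pdgfrb-marked knockout CD31 well of 5973 UMIs, which scaling put above the limit, held 10. All 11 wells above 8000 UMIs held Cryab, with 126 UMIs of 94756 or 13.3 (11.1 to 15.8) per 10000. Of these wells, 8 carried Pdgfrb alone and held 10.1 to 23.1 Cryab UMIs per 10000, 3 carried neither marker and held 2.15 to 14.2, and none was marked as endothelial. At the mitochondrial limit, the pericyte with the highest share (9.10%) held 8 Cryab UMIs, and the Pdgfrb-marked well with 11.4% held 2. The endothelial-marked well with a mitochondrial share of 10.9% held 1 Cryab UMI, the only such UMI in an endothelial-marked well of at least 1000 UMIs. Of the 7 retained wells with neither marker, 1 held Cryab, at 18.1 per 10000. Of the 3 with both markers, 2 held it, at 7.87 and 14.6.

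The 5 genes whose levels over the 7 sums of class and plate were most like those of Cryab were Ogn, Aspn, Plat, Ndufa4l2 and Efhd2. They were ranked by Pearson r of log2(UMIs per 10000 + 1) among 617 genes with at least 30 UMIs. All 5 had an r of at least 0.993 and no UMI in endothelial cells. Their levels in pericytes were 3.73 per 10000 for Ogn (osteoglycin) and 4.23 for Aspn (asporin), both small leucine-rich proteoglycans of the extracellular matrix. Plat, tissue plasminogen activator, stood at 4.23 per 10000. Ndufa4l2, a mitochondrial protein known as a pericyte marker, stood at 10.4, and Efhd2, a calcium-binding protein, at 6.71. The 7 sums share libraries, and the likeness rests on the gap between the classes.

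Hspb1 (HSP27), which caps actin filaments and forms mixed oligomers with αB-crystallin, had 28 UMIs in pericytes and 0 in endothelial cells. It was found in 10 of 21 pericytes and 0 of 11 endothelial cells. Its level in pericytes was 3.48 UMIs per 10000, which is 3.60-fold the floor of 3 UMIs in endothelial cells. The exact interval of the ratio of the classes started at 2.74. The plates differed: 2 UMIs or 1.11 (0.135 to 4.01) per 10000 in the control CD31 plate, 12 UMIs or 8.51 (4.40 to 14.9) in the control PDGFRB plate and 14 UMIs or 2.90 (1.58 to 4.86) in the knockout PDGFRB plate. The 2 control plates came from the same suspension and differed 7.67-fold (1.71 to 70.5, conditional binomial interval). In the control PDGFRB plate, 2 of 3 pericytes held 6 Hspb1 UMIs each and the other held 0, so that level rests on 2 cells. Pericytes with an Hspb1 UMI had 15.5 Cryab UMIs per 10000 and those without had 10.2, with median totals of 4617 and 3353 UMIs. Across the 21 pericytes the levels of the 2 genes had a Pearson r of 0.28 and a Spearman rho of 0.34, on few UMIs per cell.

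Hspb6 (HSP20), a muscle-enriched family member, had 1 UMI in the whole table, in an endothelial cell of the control CD31 plate. Hspb8 (HSP22), which works with the co-chaperone BAG3, also had 1 UMI, in a control PDGFRB well under 1000 UMIs. Neither was found in pericytes, where 3 UMIs of 80460 would be 0.373 per 10000. Among the 10 genes of the small heat-shock protein family, Cryab was the one that passed the filter on low counts, so the family gives no count of calls. Hspb2 had 8 UMIs in pericytes and 1 in endothelial cells, a ratio of 3.09 (0.414 to 137). Its UMIs summed to 28 over all wells, of which 1 lay in wells under 1000 UMIs, where Cryab had 152. Hspb3, Hspb7, Hspb9 and Odf1 had no UMI in either class.

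**Figure D3:**
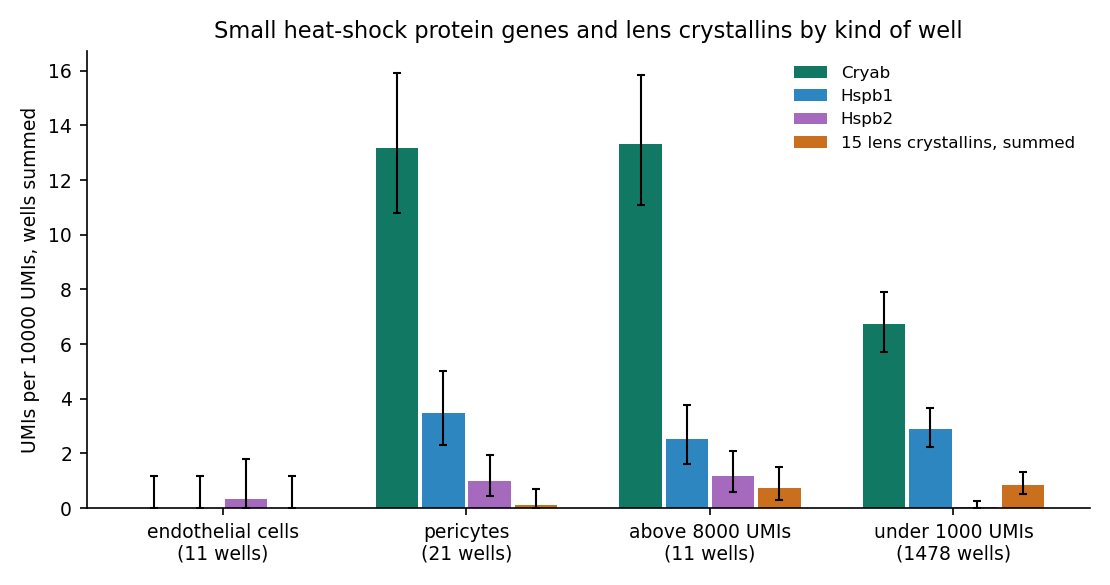
Levels of Cryab, Hspb1, Hspb2 and 15 summed lens crystallins (UMIs per 10000 UMIs) in endothelial cells, pericytes, wells above 8000 UMIs and wells under 1000 UMIs, with wells of a kind summed over the 4 plates. Bars start at 0 and error bars are 95% Poisson intervals for counting error. Cryab stands at 13.2 in pericytes, 13.3 above the limit, 6.74 in wells under 1000 UMIs and 0 in endothelial cells, while lens crystallins stay at or under 0.842.

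Lens crystallins were nearly absent from the retained pericytes and endothelial cells. Cryaa, Cryba1 and Crygs had 0 UMIs in pericytes and 0 in endothelial cells. A sum of 3 UMIs would have been 0.373 per 10000 in pericytes and 0.966 in endothelial cells. Of the 15 lens crystallins counted, which leave Cryab out, only Cryba2 (βA2-crystallin) appeared in pericytes, with 1 UMI in the control CD31 plate. No UMI of 12 genes of lens fibres and lens epithelium, among them Mip, Lim2 and Prox1, was found in either class. Cryab thus had 106 UMIs in pericytes next to 1 UMI of any lens gene, a ratio of 106 (18.6 to 4226). The 11 wells above 8000 UMIs, which all held Cryab, had 7 lens crystallin UMIs, of which 6 were Cryba2 in a Pdgfrb-marked well with 15 Cryab UMIs.

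In wells under 1000 UMIs, which included wells of a few UMIs, lens genes were found at a low level. Cryaa had 5 UMIs in the control CD31 plate and 1 in the control PDGFRB plate, and none in the knockout plates. Cryba1 had 2 and 1 UMIs in the same control plates. Crygs had 0 UMIs in all 1536 wells, where 3 UMIs of 462758 would be 0.0648 per 10000. Crybb1 (βB1-crystallin) had 5 UMIs in these wells, Cryba2 had 2 and Cryba4 (βA4-crystallin) had 2. Mip, the water channel of lens fibres, had 4. Prox1, a transcription factor of lens fibres that lymphatic endothelium and retinal cells also express, had 14. Of the 27 lens genes on both lists, 7 reached 3 UMIs over all wells and 18 had none.

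Pooled over plates, the proportion of Cryab to lens crystallins differed between pericytes and wells under 1000 UMIs. In wells under 1000 UMIs, Cryab had 152 UMIs and the 15 lens crystallins 19, a ratio of 8.0 (4.95 to 13.7). This interval lies below that of pericytes. In wells above 8000 UMIs the ratio was 18.0 (8.49 to 45.7), and its interval overlaps both. The pericyte ratio rests on 1 lens crystallin UMI, and the plates are mixed in unlike shares in the kinds of wells. In wells under 1000 UMIs, lens crystallins ran from 0.164 to 1.74 per 10000 between plates. Without the control CD31 plate the ratio there was 12.9, from 103 and 8 UMIs. A difference within plates was not tested. Against other genes the proportion was closer for some and not for others. Cryab had 14.7 (11.8 to 18.0) UMIs per 100 UMIs of Rgs5, a pericyte marker, in pericytes and 14.6 (12.2 to 17.3) in wells under 1000 UMIs. Against 14 pericyte markers without Pdgfrb, Cryab had 7.49 (6.09 to 9.13) UMIs per 100 in pericytes and 9.78 (8.22 to 11.6) in wells under 1000 UMIs. Against 8 smooth muscle markers, it had 76.3 (58.7 to 98.9) UMIs per 100 in pericytes and 15.4 (12.9 to 18.3) in wells under 1000 UMIs. In wells above 8000 UMIs the Cryab count per 100 UMIs of Rgs5 was higher, at 74.1 (58.4 to 93.9), and the Rgs5 level was lower, at 17.9 per 10000 against 89.9 in pericytes. In endothelial cells, Rgs5 had 21 UMIs and Cryab 0, which allows up to 19.2 Cryab UMIs per 100 of Rgs5.

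Cryab was spread thinly over the wells under 1000 UMIs. It was found in 132 of 1478 wells, or 8.93% (exact binomial interval 7.53 to 10.5), with at most 3 UMIs in a well and 0.103 UMIs per well on average. The level was 5.20 (3.13 to 8.13) per 10000 in the knockout CD31 plate, 7.88 (5.81 to 10.5) in the knockout PDGFRB plate, 7.76 (5.74 to 10.3) in the control CD31 plate and 5.54 (3.88 to 7.66) in the control PDGFRB plate. The 4 intervals overlap. Wells with at least 1 UMI of the 14 pericyte markers held 8.53 Cryab UMIs per 10000, and the other wells held 4.76. A lens gene was found in 32 of these wells and Cryab with it in 4, or 12.5%, compared with 8.85% of the wells without a lens gene. As levels, these were 10.6 Cryab UMIs per 10000, from 7 UMIs, and 6.62. A lens crystallin was found in 15 wells under 1000 UMIs, and Prox1, which is not restricted to the lens, in 14. These shares were not tested. Of the 5 wells with Cryaa, 1 also held Cryab.

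Class markers were also read in wells of 200 to under 1000 UMIs, with no limit on the mitochondrial share. The selection of the members had not used these wells. Pericyte-marked wells held 0 Cryab UMIs of 2342 in the control CD31 plate, 2 of 1860 in the control PDGFRB plate, 3 of 2477 in the knockout CD31 plate and 4 of 4432 in the knockout PDGFRB plate. Endothelial-marked wells held 0 of 1180, 0 of 541, 0 of 145 and 2 of 1182 in the same order. The mean of the 4 plate levels was 7.97 ± 5.46 (SD) per 10000 in pericyte-marked and 4.23 ± 8.46 in endothelial-marked wells. The groups overlapped, and an exact two-sided permutation test over the plate sums gave p = 0.486, with 0.0286 the smallest p that 4 against 4 sums allow. The test did not pair the 2 classes of a plate. Each endothelial-marked sum held 1182 UMIs or fewer, where few Cryab UMIs would be found even at the pericyte-marked level. The test therefore cannot decide whether the classes differed. Wells with neither marker held 7.33 (5.73 to 9.23) Cryab UMIs per 10000. The endothelial level rests on the 2 UMIs of the knockout PDGFRB plate. Without that plate the means were 7.62 and 0.0 (exact permutation p = 0.40 for 3 against 3). With a mitochondrial share under 10%, the means were 3.52 over 4 pericyte-marked sums and 0.0 over 2 endothelial-marked sums (exact permutation p = 0.8). In edgeR without the mitochondrial limit, 10 genes passed the filter in these wells. None was called (0.0%) and none had an unadjusted p under 0.05. DESeq2 gave the same 2 counts. Cryab did not pass that filter. Without the filter, 1 of 4607 genes was called (0.0217%), and Cryab had a log2 fold change (pericyte minus endothelial) of 1.16 ± 1.14 (SE) with an adjusted p of 0.49 in edgeR's quasi-likelihood test.

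Cryab was found in pericytes of both genotypes. It had 46 UMIs of 32109, or 14.3 (10.5 to 19.1) per 10000, in 9 control pericytes and 60 UMIs of 48351, or 12.4 (9.47 to 16.0), in 12 knockout pericytes. The ratio of control to knockout was 1.15 (0.769 to 1.72). With the PDGFRB-gate plates alone it was 0.972 (0.532 to 1.69). These intervals do not show that the genotypes were alike, and the plates of a genotype are not replicates of it. In the same comparison 12.7% of 754 genes with at least 20 UMIs in pericytes differed more than 2-fold in either direction (6.1% higher and 6.63% lower in control), and neither Cryab nor Hspb1 was among them. In wells above 8000 UMIs, Cryab had 12.4 (9.09 to 16.6) per 10000 in control and 13.9 (10.99 to 17.3) in knockout wells. In wells under 1000 UMIs the levels were 6.63 (5.30 to 8.20) and 6.88 (5.33 to 8.73). By gate these went opposite ways, with 7.76 in control and 5.20 in knockout wells of the CD31 plates, and 5.54 and 7.88 in those of the PDGFRB plates.

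**Figure D4:**
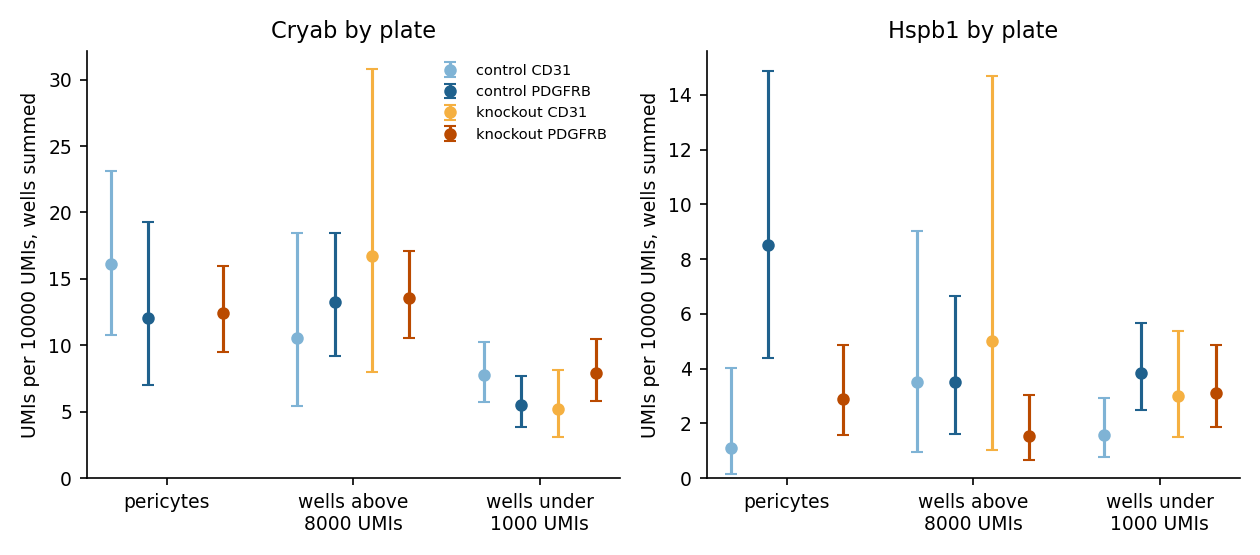
Cryab (left) and Hspb1 (right) by plate in pericytes, wells above 8000 UMIs and wells under 1000 UMIs, as UMIs per 10000 UMIs of the summed wells. Points are plates, coloured by genotype and gate, and bars are 95% Poisson intervals for counting error. The knockout CD31 plate has no pericyte. Cryab intervals overlap between plates within each kind of well, while Hspb1 in pericytes runs from 1.11 to 8.51 in the 2 control plates.

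Hspb1 had 14 UMIs in pericytes of either genotype, which is 4.36 (2.38 to 7.32) per 10000 in control and 2.90 (1.58 to 4.86) in knockout pericytes. The ratio of control to knockout was 1.51 (0.665 to 3.41). It was 2.94 (1.24 to 6.85) between the PDGFRB-gate plates alone, where the control value rests on the same 2 cells. Hspb2 had 3 and 5 UMIs in control and knockout pericytes, a ratio of 0.904 (0.140 to 4.64). In endothelial cells, Cryab and Hspb1 were at 0 in both genotypes, where 3 UMIs would be 1.98 per 10000 in control and 1.89 in knockout cells. No difference was detectable at this depth for Hspb6, Hspb8, Cryaa, Cryba1 and Crygs in either class.

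Other chaperones were found in both classes. The list of 25 chaperones and heat-shock factors summed to 56.7 UMIs per 10000 in endothelial cells (plates 38.8 to 73.4) and 49.6 in pericytes (plates 34.1 to 54.4). Of these 25 genes, 2 passed the filter and 0 were called by edgeR in either direction. They were Hspa8, the constitutive HSC70, with an adjusted p of 0.57, and Hsp90ab1, the constitutive HSP90β, with an adjusted p of 0.30 (edgeR, Benjamini-Hochberg). The pooled ratio of Hsp90ab1 was 0.507 (0.351 to 0.737), with 71 and 54 UMIs. In comparison, 51 of 148 genes tested (34.5%) were called, 36 higher (24.3%) and 15 lower (10.1%) in pericytes. Without scaling between plates, 25 were higher and 17 lower. These calls follow TMM normalization. In levels per 10000, which lack it, the sums did not overlap for 13.5% of genes towards pericytes and for 27.0% towards endothelial cells. The median log2 fold change of the 2 genes was -0.10 and that of all genes tested was -0.02. The stress-induced Hspa1a and Hspa1b had 3 UMIs each in pericytes and 0 in endothelial cells. Hsf1, the main heat-shock factor, had 3 and 1 UMIs, and Hsf2 had none. Hspa8, Hsp90ab1 and the genes of this and the next paragraph other than Actb were named after their values were seen.

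Among 17 partners and clients of small heat-shock proteins, 3 passed the filter and 1 was called. Actb (β-actin) was higher in pericytes, with a log2 fold change of 0.84 ± 0.29 (SE) and an adjusted p of 0.014 (edgeR). The call was lost with plate as a replicate block (log2 fold change 0.59), in DESeq2 (0.87), without scaling between plates (0.62), with a mitochondrial share under 5% (0.73) and without an upper UMI limit (0.47). It was also lost on leaving out the knockout CD31 (0.51), knockout PDGFRB (1.19) or control PDGFRB plate (0.69). The pooled ratio of Actb was 1.23 (0.993 to 1.53), and Actb sums overlapped between classes. Its adjusted p over the alternatives ran from 0.00597 to 0.9998. Actg1 (γ-actin) and Vim (vimentin), the other 2 tested, had adjusted p of 0.65 and 0.30. Vim had 72 UMIs in pericytes and 56 in endothelial cells, a pooled ratio of 0.496 (0.345 to 0.717). The median log2 fold change of the 3 was 0.18, that of Actg1, whose pooled ratio was 0.835 (0.612 to 1.15). The fit rescales the sums by TMM normalization and the pooled ratios do not, so the 2 measures can differ in direction. Des, the intermediate filament desmin that αB-crystallin binds in muscle, had 23 UMIs in pericytes and 1 in endothelial cells, a pooled ratio of 8.88 (1.44 to 366), but did not pass the filter. Flna (filamin A) had 55 and 8 UMIs, a ratio of 2.65 (1.26 to 6.45). Bag3, the co-chaperone of Hspb8, had 2 and 1 UMIs.

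**Figure D5:**
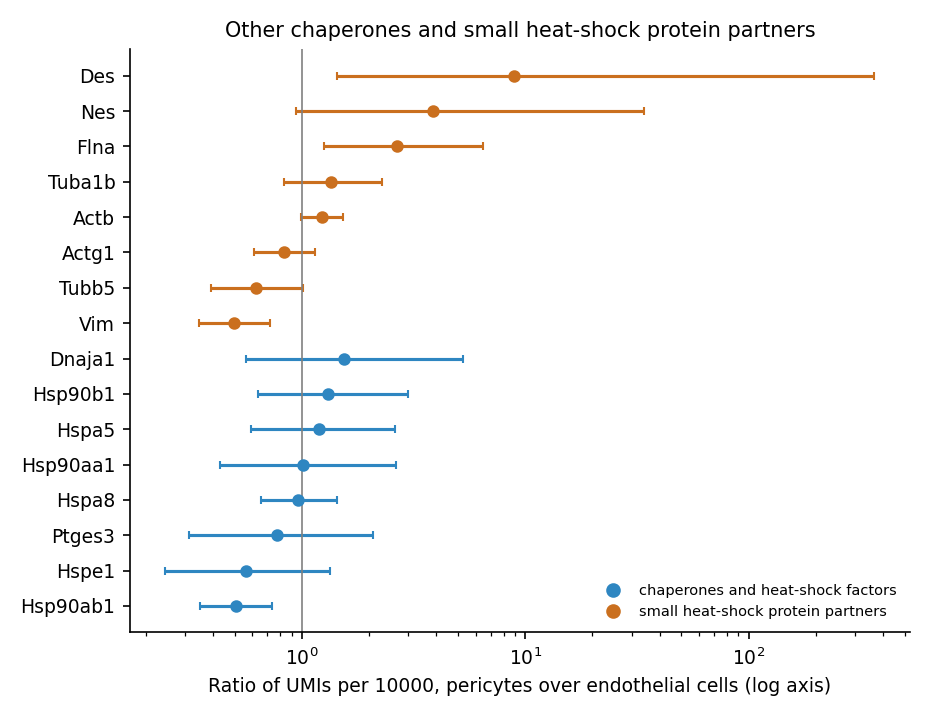
Ratio of UMIs per 10000 in pericytes over endothelial cells (horizontal log axis, cells summed over plates) for the 16 listed chaperones and partners with at least 20 UMIs in the 2 classes together and a UMI in each. Points are pooled ratios and bars are exact conditional binomial intervals for counting error, with 1 marked by a grey line. Hsp90ab1 and Vim lie below 1, Flna and Des above it, and the intervals of the other 12 include 1.

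Markers of other cell types were read in the same cells. Smooth muscle markers, of which 5 of 8 were detected in pericytes, summed to 17.3 per 10000 there (plates 14.9 to 21.3) and to 3.87 in endothelial cells (plates 0.0 to 6.04), with Cnn1, Lmod1 and Actg2 at 0 in pericytes. Their part in the Cryab difference was not tested. No UMI of 8 skeletal muscle markers was found in either class, while 90 were found in wells under 1000 UMIs. The 8 glial markers summed to 1.12 per 10000 in pericytes and 2.90 in endothelial cells, with 1 of the 8 (Glul) detected and Gfap and Aqp4 at 0. Macrophage markers summed to 1.99 per 10000 in pericytes and 0.966 in endothelial cells. Erythroid markers summed to 2.61 and 76.3 in the same order, with endothelial plates from 0.0 to 260.1, so this sum was uneven between plates. Melanocyte and pigment epithelium markers summed to 0.249 and 0.0, and retinal neuron markers to 0.497 and 0.0.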

How the data were processed

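STARsolo 2.7.11b on GRCm38 was used by the authors to count UMIs per gene and well. The deposited values are estimated counts, unscaled, and 1.18% of them are not whole. Values were rounded to whole UMIs, and the 92 spike-ins were left out. Well totals were brought to the median of the deepest plate (by median), and the study's limits and its Cldn5 and Pdgfrb rule were applied. No doublet caller was run. Wells were summed by class and plate. The classes were compared in edgeR 4.0.16 (quasi-likelihood, TMM, filterByExpr, Benjamini-Hochberg, calls at an adjusted p under 0.05), after a test on simulated counts, with DESeq2 1.42.0 as an alternative. Sums are not of separate animals, and the main fit had no term for plate, although most plates held both classes. Its p-values measure the spread between sums of a class, in which cells, counting, genotype and gate are mixed. Intervals (95%) are exact Poisson for sums, conditional binomial for ratios and Clopper-Pearson for shares, from scipy 1.17.1, and cover counting error only. Figures were drawn with matplotlib 3.10.9. Gene positions are from GENCODE M21.

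The members and lists were chosen with earlier results of these data known. Named were the 7 members, called genes of the small heat-shock protein, chaperone and partner lists (up to 8 a list), lens genes with at least 3 UMIs (up to 10) and the 5 genes most like Cryab. Sums of a class within a plate, not the cells, were the units of every test. Alternatives changed the normalization, filters, UMI and mitochondrial limits, plate scaling and class rule, and left out each plate.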

Additional observations from a re-analysis of the deposited data

Results flagged for a closer look

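Wells above 8000 UMIs entered the comparison between classes only in the alternative without an upper limit. Among the small heat-shock protein and lens genes, 4 had more UMIs there than the floor of 3. Cryab had 126 UMIs in all 11 of these wells and Hspb1 had 24 UMIs in 7 of them. Hspb2 had 11 UMIs, of which 6 came from the control CD31 well of 11358 UMIs. Cryba2 had 6 UMIs, all from 1 Pdgfrb-marked well of the control PDGFRB plate that also held 15 Cryab UMIs.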

How the results depend on the processing

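The Cryab level in pericytes was 13.6-fold the floor of 3 UMIs (the exact interval of the ratio started at 10.9). The value against the floor was 9.87 to 11.03 without 1 plate in turn. It was 5.87 with cells thinned to 1000 UMIs, since fewer UMIs raise the floor of 3. When class was taken from the sorting gate, the Cryab ratio reversed to 0.914 (the Cldn5 and Pdgfrb markers are then not used, and CD31-gate plates hold 6 pericytes), the control to knockout ratio moved to 0.573, the log2 fold change of Actb turned to -0.20 and 0 genes were called. Without the filter on low counts, 238 of 10829 genes were called in place of 51, and leaving out 1 plate gave 32 (knockout PDGFRB plate) to 54. With plate as a replicate block, 46 genes were called, and 0 in place of 1 of the chaperones and partners. DESeq2 also called 0 of them, and leaving out plates called 0 to 1, which was Vim without the control PDGFRB plate. In wells under 1000 UMIs the count of called genes was 1 in place of 0 without the filter, with the mitochondrial limit and without some plates (0 to 1), and 0 with the replicate block. The cause was not tested. Cryab to lens crystallins ranged from 5.78 to 12.9 without 1 plate. The genotype ratio comes from no test, so no paired fit was made for it. The depth of 31048 endothelial UMIs limits every 0 there.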
